A study of Mus musculus with 4 samples.

Results

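Macrophages of inguinal white adipose tissue (subcutaneous fat of the mouse groin) were described from single-nucleus RNA sequencing. They were chosen by their own counts: a nucleus was selected on at least 1 unique molecular identifier (UMI, one captured RNA molecule) of at least 3 of 8 markers (Mrc1, F13a1, Adgre1, Cd163, Ms4a7, Lyz2, Retnla and C1qb). It also had to hold fewer than 3 of 7 mature dendritic cell genes and fewer than 4 of 9 adipocyte genes. The rule found 717 of 50067 kept nuclei. All mice were C57BL/6N aged 6 months, with 2 libraries labelled PTRF knockout and 2 labelled WT, and the titles name 1 mouse for each library. PTRF is an older name for cavin-1, made from Cavin1, a protein that coats caveolae, the small membrane pits abundant in adipocytes. The series title places the targeting at a distal enhancer of that gene. The sources used here do not state how the allele was made, in which cells it acts or the sex of the mice.

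The knockout labels are not borne out by Cavin1. In nuclei other than macrophages Cavin1 was at 54.0 and 51.5 CPM (UMIs scaled to the same total in each library) in the libraries labelled knockout 1 and 2, against 1.84 and 1.06 CPM in those labelled WT 1 and 2. Within macrophage nuclei, which carry little Cavin1, the counts were 3 and 13 UMIs in the libraries labelled knockout and 0 and 0 UMIs in those labelled WT. Summed over each group, that is at least 2.72-fold higher in the group labelled knockout, against a floor of 3 counts over the group labelled WT. The gene named by the labels was thus higher where the labels place the knockout, so every direction below is that of the labels and not of a genotype.

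Tissue macrophages engulf dead cells, debris and lipid, degrade them in lysosomes and signal through secreted factors. In adipose tissue a resident, mannose receptor-bearing type lies along vessels, a lipid-associated type gathers around dying adipocytes, and monocytes arriving from blood add to both. The transcription factor PU.1 (Spi1) sets the lineage and the receptor for colony-stimulating factor 1 (Csf1r) keeps the cells alive.

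The libraries labelled knockout 1 and 2 gave 71 and 331 macrophage nuclei, against 218 and 97 in those labelled WT 1 and 2. Their summed counts were 74894 and 925424 UMIs in the libraries labelled knockout, against 389489 and 120583 UMIs in those labelled WT, so the library labelled knockout 1 carries the least evidence. The median macrophage nucleus held 959 and 2466 UMIs in the libraries labelled knockout 1 and 2, against 1379.5 and 1061 UMIs in those labelled WT 1 and 2. Between 47 and 143 barcode sequences were shared by any pair of libraries, at most 0.968% of a library.

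Set against other nuclei, the macrophage nuclei were high in known lineage genes, which is a description since the rule chose them. Of 2357 genes with at least 50 CPM in macrophage nuclei of every library, the 20 with the highest ratio to other nuclei ran from Retnla, a secreted protein of alternatively activated macrophages, at 72.1 times, down to Skint3 at 17.9 times. The 8 rule markers were all among the 20. The other 12 were not used to choose the nuclei: the chemokines Ccl6 at 47.9 times and Ccl9 at 36.7 times, the lectin Clec10a at 42.4 times, Cd300lb at 39.3 times, the complement subunits C1qc at 30.5 times and C1qa at 29.7 times, Ms4a4a at 29.2 times, the RNA sensor Tlr8 at 24.6 times, Mctp1 at 21.7 times, the scavenger receptor Stab1 at 20.3 times and the endothelin receptor Ednrb at 19.0 times, with Skint3 last.

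**Figure D1:**
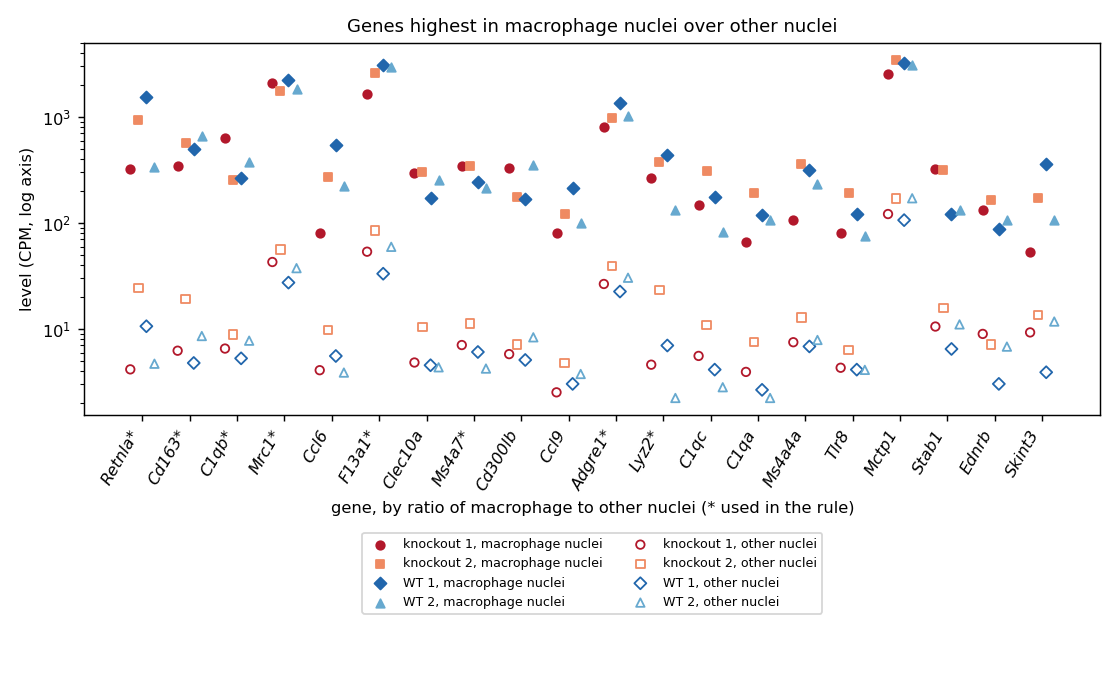
Level (CPM, log axis) of the 20 genes with the highest ratio of macrophage to other nuclei, by library; filled symbols are macrophage nuclei, open symbols other nuclei, and an asterisk marks genes used in the rule. In each library the filled symbol lies above the open one for all 20 genes.

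Promoters of these 20 genes, 8 of them rule markers, were read as the regulatory sequence of the genes that set the nuclei apart. RefSeq windows (GRCm38.p6, 250 bases before to 50 after a start) were found for 17 of the 20 genes. A core PU.1 motif, GAGGAAGT, was searched on both strands. It lay in windows of 3 of these 17 genes, the rule markers Retnla and F13a1 and the non-rule gene C1qc, against 3.69% of all 27025 genes with a window. In F13a1 it fell in the window of a RefSeq start inside the GENCODE gene, and the window at the GENCODE start had 0 matches. For the other 2 genes the bases before the earlier of the RefSeq and GENCODE starts are printed, with the motif, here on the opposite strand, in capitals. The stretch of Retnla lies on the plus strand at chr16:48842359-48842550 and that of C1qc on the minus strand at chr4:136893066-136893164. A match of letters is a description of the sequence and no evidence of binding.
Retnla: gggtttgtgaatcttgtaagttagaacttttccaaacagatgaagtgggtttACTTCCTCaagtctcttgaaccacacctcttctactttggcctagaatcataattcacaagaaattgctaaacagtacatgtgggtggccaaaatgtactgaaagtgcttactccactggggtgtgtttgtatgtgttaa
C1qc: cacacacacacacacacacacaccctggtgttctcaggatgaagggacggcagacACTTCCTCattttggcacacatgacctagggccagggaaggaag

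Among the rule's own markers, Mrc1, the mannose receptor, was at 2110 and 1760 CPM in the libraries labelled knockout 1 and 2, against 2226 and 1849 CPM in those labelled WT 1 and 2. F13a1, the coagulation factor XIII subunit made by resident macrophages, was at 1656 and 2611 CPM in the libraries labelled knockout, against 3086 and 2961 CPM in those labelled WT. Retnla varied most between libraries of the same label, at 320 and 942 CPM in those labelled knockout and 1561 and 340 CPM in those labelled WT. C1qb, a subunit of the complement initiator C1q, was at 628 and 254 CPM in the libraries labelled knockout and 264 and 373 CPM in those labelled WT. No test is given for these genes because they chose the nuclei.

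Mrc1 had at least 1 UMI in 81.7% and 81.9% of macrophage nuclei of the libraries labelled knockout 1 and 2, against 86.2% and 85.6% in those labelled WT 1 and 2. Among nuclei with at least 4 adipocyte genes, which should lack it, the shares were 2.95% and 6.23% in the libraries labelled knockout and 2.05% and 1.59% in those labelled WT, at median depths of 1377 and 2534 UMIs against 1794 and 1652 UMIs. Csf1r, outside the rule, was seen in 12.7% and 44.1% of macrophage nuclei of the libraries labelled knockout, against 27.1% and 14.4% in those labelled WT. After each nucleus was thinned to 500 UMIs, these became 8.45% and 14.5% in the libraries labelled knockout, against 11% and 10.3% in those labelled WT. Trem2, the lipid receptor that marks lipid-associated macrophages, was seen in 0 of 71 and 2 of 331 nuclei in the libraries labelled knockout, against 3 of 218 and 1 of 97 in those labelled WT. The 0 of 71 allows a share of nuclei with a Trem2 UMI of up to 4.23%, for counting error only, and at this depth sets no limit on nuclei that express the gene.

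Nuclei at the edge of the rule were counted next, with no test. Nuclei with just 2 markers numbered 141 and 279 in the libraries labelled knockout 1 and 2, against 124 and 106 in those labelled WT 1 and 2. Those with just 3 markers, the least that the rule admits, numbered 45 and 115 in the libraries labelled knockout, against 85 and 59 in those labelled WT. Zeb2, a transcription factor of the myeloid lineage, was at 1422 and 1740 CPM just outside and at 2540 and 3241 CPM just inside in the libraries labelled knockout. In the libraries labelled WT it was at 2932 and 2285 CPM just outside and at 4168 and 3293 CPM just inside.

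Mature dendritic cells, the other myeloid population with a gene list in the rule, were set beside the macrophages. The 7 genes of that list picked out 71 and 103 nuclei in the libraries labelled knockout 1 and 2, against 335 and 118 in those labelled WT 1 and 2. Maf, a transcription factor of resident macrophages, was at 307 and 791 CPM in macrophage nuclei of the libraries labelled knockout and at 549 and 697 CPM in those labelled WT, while it stayed between 6.81 and 20.4 CPM in dendritic nuclei. Ccr7, the homing receptor of mature dendritic cells, showed the reverse order, between 0 and 5.13 CPM in macrophage nuclei of the 4 libraries and between 195 and 420 CPM in dendritic nuclei. Spi1 did not separate them, at 66.8 and 367 CPM in macrophage nuclei of the libraries labelled knockout and 182 and 182 CPM in those labelled WT, with dendritic nuclei between 282 and 327 CPM.

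How large a part of the tissue the macrophages formed was the first comparison between labels. They were 0.592% (exact 95% interval 0.463% to 0.746%) and 2.08% (1.87% to 2.32%) of kept nuclei in the libraries labelled knockout 1 and 2. In the libraries labelled WT 1 and 2 they were 1.40% (1.22% to 1.60%) and 1.46% (1.18% to 1.77%). Both libraries labelled WT fell between the libraries labelled knockout. The means were 1.34% ± 1.05 in the group labelled knockout and 1.43% ± 0.0365 in the group labelled WT (SD, n = 2 each), a difference of -0.0919 percentage points with an exact two-sided permutation p of 1.0. With 2 libraries a group the smallest p this test allows is 0.333. The difference was 0.654 without the library labelled knockout 1 and -0.837 without that labelled knockout 2, so a single library sets its direction.

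The share also depended on how nuclei with adipocyte genes were counted. In the library labelled knockout 2, 142 of 5041 adipocyte-gated nuclei (2.82%) held at least 3 macrophage markers, and 0.0454% did in that labelled knockout 1, against 0.521% and 0.114% in those labelled WT 1 and 2. Among its macrophage nuclei 38.7% held 3 adipocyte genes, against 2.82% in the library labelled knockout 1 and 10.1% and 0% in those labelled WT. Counting only nuclei with fewer than 2 adipocyte genes left 0.450% and 0.491% in the libraries labelled knockout, against 0.992% and 1.32% in those labelled WT. On that count the groups did not overlap, at an exact permutation p of 0.333, the smallest possible. The means were 0.471% ± 0.0286 in the group labelled knockout and 1.16% ± 0.232 in the group labelled WT (SD, n = 2 each). That cap took the library labelled knockout 2, the deepest at a median of 2466 UMIs per macrophage nucleus, from 331 to 78 nuclei. The cap was not applied to thinned nuclei, so depth and share cannot be told apart in this count. With the main rule, thinning to 500 UMIs gave 0.267% and 1.16% in the libraries labelled knockout, against 0.837% and 0.840% in those labelled WT. Of the 185 thinned nuclei of the library labelled knockout 2, 134 also met the rule on all counts. The others met it only after thinning, so the 1.16% includes nuclei outside the main count. In the library labelled knockout 1, 32 of 32 met it on all counts, against 125 of 130 and 56 of 56 in those labelled WT.

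**Figure D2:**
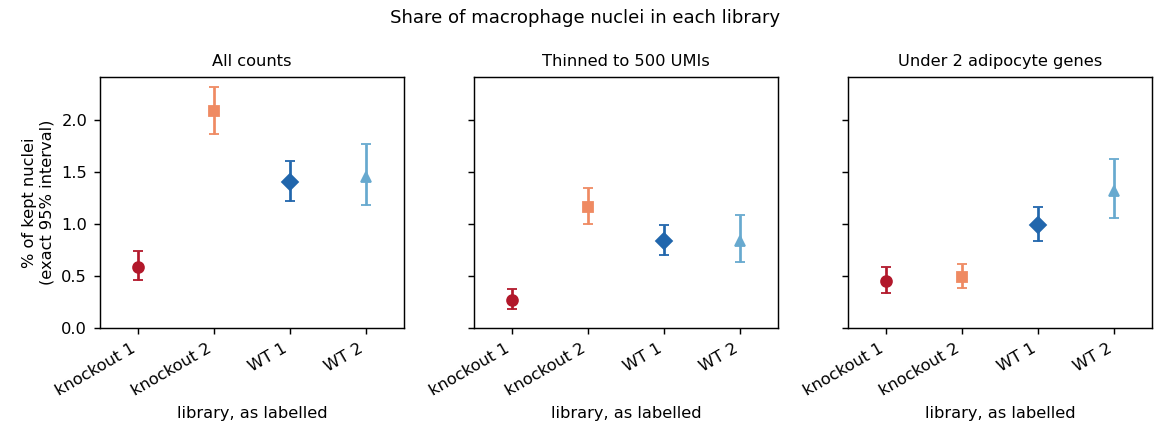
Macrophage nuclei as a percentage of kept nuclei in each library, with exact 95% intervals for counting error, for all counts, after thinning each nucleus to 500 UMIs, and for nuclei with fewer than 2 adipocyte genes. The library labelled knockout 2 is highest at 2.08% with all counts and drops to 0.491% in the last panel.

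Across genes, 5417 were tested in summed macrophage counts with edgeR's quasi-likelihood test and Benjamini-Hochberg adjustment at 0.05. The test called 1 gene, which is 0.0185% of those tested. At an unadjusted p under 0.05 there were 155 genes, 68 higher and 87 lower in the group labelled knockout, and the median log2 difference over all genes was -0.03. The libraries of the groups did not overlap for 16.1% of the tested genes with the group labelled knockout higher and for 12% with it lower. In the other nuclei the same test called 29 of 28013 genes, 0.104%. The test of whether the difference between labels was itself unlike that in the other nuclei called 0 of 22087 genes (0%) by edgeR, with 365 at an unadjusted p under 0.05 and 3 called after scaling by DESeq2 size factors. The number called also changed when the library labelled knockout 2 was left out, a fit that holds a single library labelled knockout.

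The called gene was Gm47283 (ENSMUSG00000096768), a predicted protein-coding gene at chrY:90784738-90816464 on the plus strand in the GENCODE M21 annotation of GRCm38. It had 202 and 1227 UMIs in macrophage nuclei of the libraries labelled knockout 1 and 2, against 10 and 1 UMIs in those labelled WT 1 and 2. The levels were 2697 and 1326 CPM in the libraries labelled knockout and 25.7 and 8.29 CPM in those labelled WT, a log2 difference of 6.57 ± 0.64 (SE) with an adjusted p of 1.81e-05. It is named here because it was the single call, chosen after its value was seen. The gene was not particular to macrophages: in other nuclei the log2 difference was 5.63, and the test of a difference between these values gave an unadjusted p of 0.156. Of adipocyte-gated nuclei 72.3% and 73.2% carried it in the libraries labelled knockout, against 5.70% and 3.97% in those labelled WT. It lies in the region that the Y chromosome shares with the X, where near-identical copies could split reads, so its level is uncertain. Of 4 genes of the male-specific part of the Y chromosome, Eif2s3y and Kdm5d had 0 UMIs in macrophage nuclei of each library. Uty had 1 and 10 UMIs in the libraries labelled knockout, against 1 and 0 UMIs in those labelled WT, and Ddx3y had 0 and 1 UMIs against 1 and 0 UMIs. In other nuclei the groups overlapped for Uty, at 5.57 and 4.22 CPM in the libraries labelled knockout and 2.48 and 6.82 CPM in those labelled WT. Xist, expressed from the inactive X chromosome, was at 668 and 1019 CPM in the libraries labelled knockout and 783 and 456 CPM in those labelled WT. In other nuclei it was at 714 and 1061 CPM in the libraries labelled knockout and 915 and 640 CPM in those labelled WT.

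The 8 genes with the smallest unadjusted p in each direction were read next, and none of the 16 passed the test, with adjusted p-values of 0.974 to 0.9997. Of the 8 with higher values in the group labelled knockout, Apoe (chr7:19696109-19699188), the apolipoprotein that carries cholesterol out of macrophages, was at 427 and 498 CPM in the libraries labelled knockout 1 and 2, against 208 and 66.3 CPM in those labelled WT 1 and 2, a log2 difference of 1.61 ± 0.46 (SE). Slc40a1 (chr1:45908068-45926523), ferroportin, the iron exporter, was at 107 and 92.9 CPM in the libraries labelled knockout, against 15.4 and 16.6 CPM in those labelled WT, from 8 and 86 UMIs against 6 and 2 UMIs, a log2 difference of 2.56 ± 0.78. The groups did not overlap in either gene, which was a condition of the choice.

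Tgfbr1 (chr4:47353222-47414931), a receptor of transforming growth factor beta, was at 1122 and 1337 CPM in the libraries labelled knockout, against 596 and 149 CPM in those labelled WT, a log2 difference of 1.63 ± 0.50 (SE). Gpnmb, a lysosomal glycoprotein of lipid-loaded macrophages, was at 160 and 163 CPM in the libraries labelled knockout, against 51.3 and 33.2 CPM in those labelled WT, a log2 difference of 1.80 ± 0.57. Stab1, a scavenger receptor of resident macrophages, was at 320 and 316 CPM in the libraries labelled knockout, against 121 and 133 CPM in those labelled WT, a log2 difference of 1.28 ± 0.43. Libraries of the same label lay close to each other for Stab1, and far apart for Tgfbr1 within the group labelled WT. Gpnmb rested on few counts, 12 and 151 UMIs in the libraries labelled knockout, against 20 and 4 UMIs in those labelled WT. The other 3 were Mir99ahg, Tanc2 and Mcc, with log2 differences of 1.38, 1.34 and 1.44. Apoe and Tgfbr1 had log2 differences of 2.70 and 2.93 without the library labelled WT 1, and of 1.06 and 0.95 without that labelled WT 2. Each of these fits holds a single library labelled WT.

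Of the 8 with lower values in the group labelled knockout, Fn1 (chr1:71585520-71653200), fibronectin, was at 66.8 and 211 CPM in the libraries labelled knockout, against 1171 and 332 CPM in those labelled WT, a log2 difference of -2.32 ± 0.57 (SE). Cd226, an adhesion receptor, was at 40.1 and 223 CPM in the libraries labelled knockout, against 822 and 498 CPM in those labelled WT, a log2 difference of -2.15 ± 0.50. Neither gene overlapped between groups, again a condition of the choice. St3gal5, which makes the ganglioside GM3, and Ms4a8a, a membrane protein of the Ms4a family, had log2 differences of -1.92 and -1.90. Sgms1, a sphingomyelin synthase, was at 267 and 493 CPM in the libraries labelled knockout, against 1068 and 1194 CPM in those labelled WT, and Plcb1, a phospholipase C, at 254 and 418 CPM against 1091 and 813 CPM.

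Ndnf, a secreted neuronal factor, had 0 and 21 UMIs in the libraries labelled knockout, against 43 and 14 UMIs in those labelled WT. mt-Co1, a subunit of cytochrome oxidase encoded in the mitochondrial genome, was at 240 and 311 CPM in the libraries labelled knockout, against 555 and 1020 CPM in those labelled WT. With 1 library left out, 1 group holds a single library, so only log2 differences are given. Without the library labelled knockout 2 those of Fn1 and Cd226 were -3.46 and -4.00. Without that labelled WT 2 they were -2.98 and -2.49. Without the library labelled WT 1 the log2 differences of Fn1 and Cd226 were -1.20 and -1.79, and without that labelled knockout 1 they were -1.92 and -1.65.

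**Figure D3:**
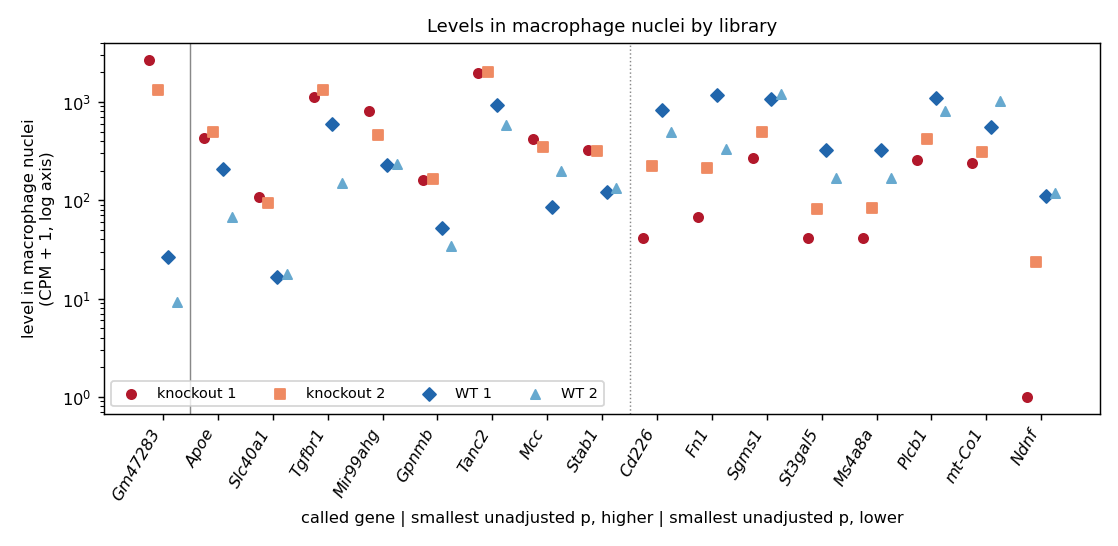
Level in macrophage nuclei (CPM + 1, log axis) of the called gene and of the 16 genes with the smallest unadjusted p, 8 in each direction, by library. For the 16 genes the libraries labelled knockout and those labelled WT lie apart by that choice. Only 1 gene, Gm47283, passed the adjusted threshold.

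The macrophage nuclei were not uniform. Clustering them alone gave 5 sub-clusters, which are given by number and not named. Folds below are on CPM plus 50 against the other macrophage nuclei, and lead genes carry no test. Sub-cluster 3 was the largest, with 268 nuclei. Among its leading genes were Selenop, a selenium carrier, at 3.7 times the other macrophage nuclei, Stab1 at 3.3 times, Ms4a4a at 3.2 times and the lectin Cd209b at 3.1 times. It had the highest summed level of the complement list, 2866 CPM, and of the resident list, 1607 CPM. Sub-cluster 4 had 146 nuclei and led in Fn1 at 19.1 times, Cd226 at 15.8 times, Plcb1 at 7.5 times and Ccr2, the receptor that draws monocytes from blood, at 6.7 times. Its monocyte list summed to 2746 CPM and its MHC class II list to 3088 CPM, the highest of the 5, while its resident list was the lowest, 111 CPM.

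Sub-cluster 1 had 81 nuclei and led in Tgfbr1 at 23.8 times, the adhesion receptor Adgrl3 at 12.7 times, Gpnmb at 10.4 times and Lpcat2, a lysophospholipid acyltransferase, at 9.2 times. Its lysosome and lipid list summed to 5743 CPM and its lipid-associated list to 2651 CPM, the highest of the 5, and its rule markers to 2625 CPM, the lowest. Sub-cluster 2, with 186 nuclei, was led by unnamed predicted genes and by Chl1, Tenm2 and Ctnna2, adhesion genes best known from neurons, at a median of 1092.5 UMIs per nucleus. Sub-cluster 5, with 36 nuclei, was led by Prlr and mitochondrially encoded genes, whose list summed to 16959 CPM. Its T/NK list summed to 717 CPM and its endothelial list to 881 CPM, the highest of the 5, and its rule markers to 4344 CPM.

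Sub-cluster 3 held 27 of 71 and 153 of 331 macrophage nuclei of the libraries labelled knockout 1 and 2, against 78 of 218 and 10 of 97 of those labelled WT 1 and 2. Sub-cluster 4 held 2 and 52 nuclei of the libraries labelled knockout, against 76 and 16 of those labelled WT. Sub-cluster 1 held 8 and 46 nuclei of the libraries labelled knockout, against 25 and 2 of those labelled WT. Sub-cluster 2 held 31 and 66 nuclei of the libraries labelled knockout, against 31 and 58 of those labelled WT, the largest number of the 5 in the libraries labelled knockout 1 and WT 2. Sub-cluster 5 held 3 and 14 nuclei of the libraries labelled knockout, against 8 and 11 of those labelled WT. These counts were not compared between labels, since genes that differ between the libraries also shaped the sub-clusters.

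**Figure D4:**
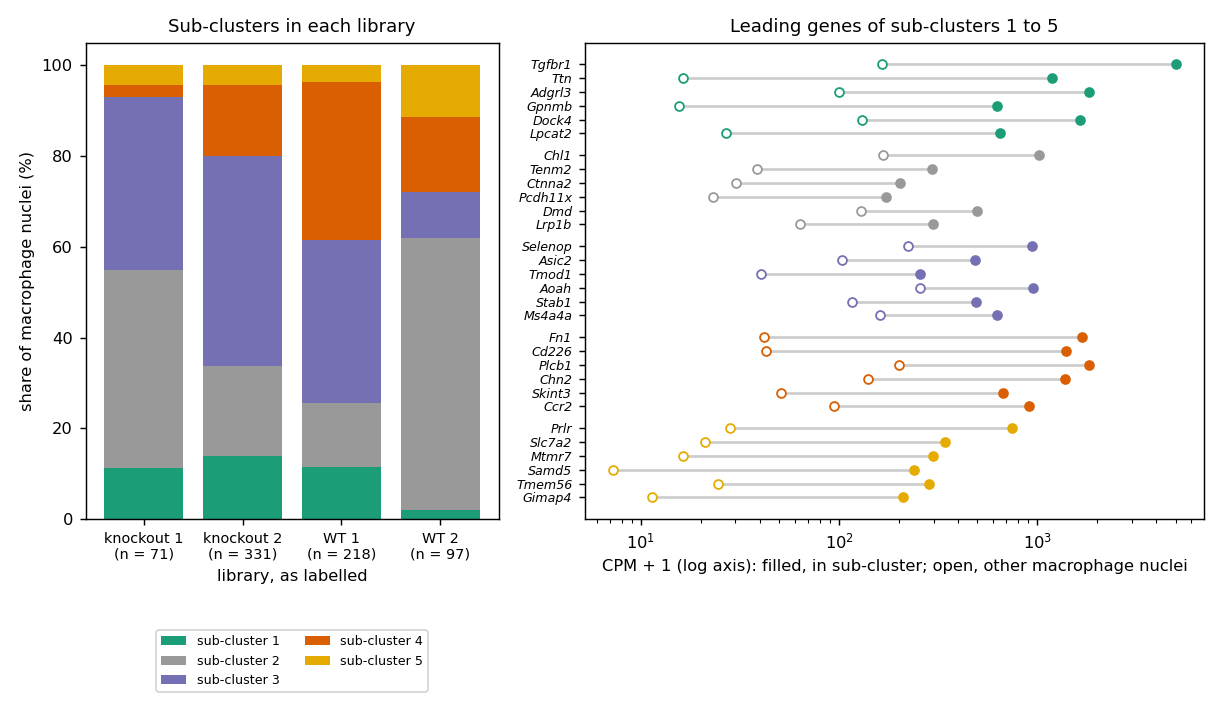
Left, share of macrophage nuclei (%) in each of 5 sub-clusters by library; right, level (CPM + 1, log axis) of 6 leading genes of each, in order of fold, leaving out predicted and mitochondrially encoded genes and 1 gene not reported here, filled in the sub-cluster and open in the other macrophage nuclei. Sub-cluster 4, led by Fn1 and Cd226, is 2 of 71 nuclei in the library labelled knockout 1 and 76 of 218 in that labelled WT 1.

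Several genes of the comparison between labels were held mainly by 1 sub-cluster. The sub-clusters were drawn from the same counts, and several of these genes lead them, so this is a description and no independent evidence. The part of the sub-clusters in the differences between labels was not tested. Of all Fn1 UMIs in macrophage nuclei 93.4% lay in sub-cluster 4, as did 92.0% of Cd226, 78.5% of St3gal5, 77.0% of Ccr2 and 75.9% of Plcb1. Of Gpnmb UMIs 90.4% and of Tgfbr1 UMIs 87.1% lay in sub-cluster 1, and 70.7% of Stab1 UMIs in sub-cluster 3. Inside sub-cluster 4 Fn1 was at 1810 and 1130 CPM in the libraries labelled knockout 1 and 2, against 2194 and 1104 CPM in those labelled WT 1 and 2, and the groups overlapped. Outside it Fn1 was at 0 and 28.5 CPM in the libraries labelled knockout, against 94.8 and 66.8 CPM in those labelled WT. Cd226 inside sub-cluster 4 was at 724 and 1136 CPM in the libraries labelled knockout, against 1578 and 1655 CPM in those labelled WT. The value of the library labelled knockout 1 rests on 2 nuclei.

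Tgfbr1 inside sub-cluster 1 was at 6667 and 5308 CPM in the libraries labelled knockout, against 3695 and 1829 CPM in those labelled WT, the last from 2 nuclei. Outside it the levels were 262 and 170.5 CPM in the libraries labelled knockout, against 144 and 126 CPM in those labelled WT. Apoe was spread over sub-clusters, with 49.1% of its UMIs in sub-cluster 3 and 30.8% in sub-cluster 1. Slc40a1 was split between the same pair, 45.1% in sub-cluster 3 and 44.1% in sub-cluster 1, and had 0 UMIs in sub-cluster 4. Gm47283 had UMIs in all 5 sub-clusters, and in the library labelled knockout 2, which has the most nuclei, it ran from 1107 CPM in sub-cluster 3 to 1933 CPM in sub-cluster 5.

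**Figure D5:**
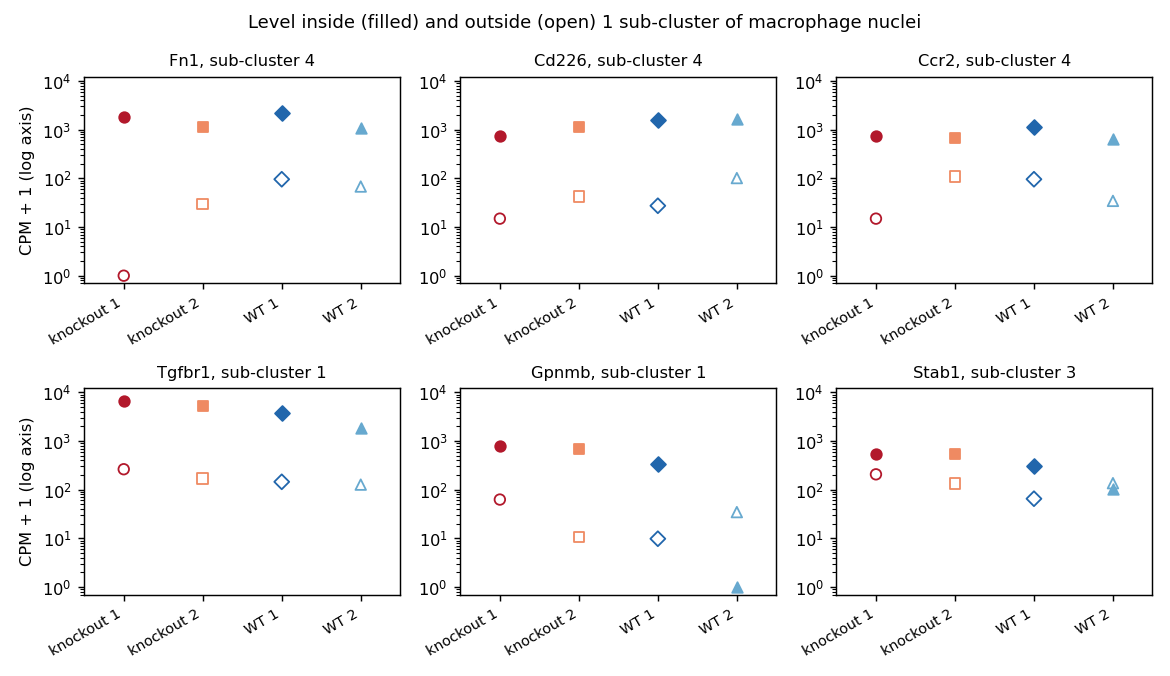
Level (CPM + 1, log axis) of 6 genes by library, inside (filled) and outside (open) the sub-cluster that holds most of their UMIs. Filled symbols lie above open ones except for Gpnmb and Stab1 in the library labelled WT 2, which has 2 nuclei in sub-cluster 1 and 10 in sub-cluster 3. The sub-clusters were drawn from the same counts.

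Gene lists for macrophage functions were described by their members. All lists were chosen with earlier results of these data known, so none is independent evidence. They also hold Stab1, Fn1, Apoe and Slc40a1, named above for a small unadjusted p. Of the members tested in each list 0 were called, against 0.0185% of all genes, and the members named are those of highest mean level. Of 12 resident or perivascular genes 5 were tested, 4 lay above 0 and the median log2 difference was 0.91, beside -0.03 over all genes. In 3 of the 5 both libraries labelled knockout lay above both labelled WT, beside 16.1% of all genes. Besides Stab1, Gas6, the bridge between dying cells and their receptors, was at 280.4 and 203 CPM in the libraries labelled knockout, against 126 and 66.3 CPM in those labelled WT. The groups overlapped for Timd4, a receptor for dying cells, and for Lyve1, a hyaluronan receptor. Lyve1 was at 40.1 and 124 CPM in the libraries labelled knockout, against 157 and 108 CPM in those labelled WT.

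Of 10 monocyte genes 3 were tested, 1 lay above 0 and the median was -1.59. The list summed to 254 and 526 CPM in the libraries labelled knockout, against 1992 and 589 CPM in those labelled WT. Fn1 and Ccr2 were its highest members. Ccr2 was at 40.1 and 203 CPM in the libraries labelled knockout, against 624 and 191 CPM in those labelled WT, so the groups overlapped.

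Lysosome and lipid handling had 15 of 16 genes tested, 12 above 0 and a median of 0.50, with both libraries labelled knockout above both labelled WT in 6 of the 15, beside 16.1% of all genes. Mitf, a transcription factor of lysosomal genes, was at 467 and 592 CPM in the libraries labelled knockout, against 562 and 556 CPM in those labelled WT. Ctsb, the lysosomal protease cathepsin B, was at 521 and 651 CPM in the libraries labelled knockout, against 306 and 232 CPM in those labelled WT. The cholesterol exporter Abca1 and the protease Ctss overlapped between groups, with log2 differences of 0.50 and 0.43. The lipid-associated list had 7 of 14 genes tested, 5 above 0 and a median of 0.17. Its highest member, the lipoprotein lipase gene Lpl, was at 227 and 236 CPM in the libraries labelled knockout, against 262 and 274 CPM in those labelled WT.

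Iron and heme genes had 7 of 11 tested, 5 above 0 and a median of 1.15, with 3 higher and 0 lower without overlap, beside 16.1% and 12% of all genes. Blvrb, a biliverdin reductase, was at 93.5 and 177 CPM in the libraries labelled knockout, against 48.8 and 82.9 CPM in those labelled WT. The list also counts Hpgds, a prostaglandin D synthase and not itself a gene of iron or heme handling. Hpgds overlapped, at 53.4 and 241 CPM in the libraries labelled knockout and 74.5 and 33.2 CPM in those labelled WT. Scavenger receptors had 8 of 10 tested, 7 above 0 and a median of 0.57. The fatty acid receptor Cd36 was at 641 and 429 CPM in the libraries labelled knockout, against 503 and 473 CPM in those labelled WT. Complement genes had 8 of 10 tested, 7 above 0 and a median of 0.30. The C1q subunit C1qc was at 147 and 311 CPM in the libraries labelled knockout, against 175 and 82.9 CPM in those labelled WT. Both Cd36 and C1qc overlapped between groups.

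Secreted growth factors had 7 of 14 tested, 4 above 0 and a median of 0.50. Pdgfc, a platelet-derived growth factor, was at 240.3 and 434 CPM in the libraries labelled knockout, against 241 and 232 CPM in those labelled WT. Igf1, insulin-like growth factor 1, was at 187 and 305 CPM in the libraries labelled knockout, against 128 and 74.6 CPM in those labelled WT, without overlap. The chemokine Ccl6 was at 80.1 and 273 CPM in the libraries labelled knockout, against 542 and 224 CPM in those labelled WT.

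MHC class II genes, for antigen presentation, had 6 of 9 tested, 5 above 0 and a median of 0.48. H2-Eb1, a class II beta chain, was at 200.3 and 539 CPM in the libraries labelled knockout, against 395 and 149 CPM in those labelled WT, so each group held a high and a low library. H2-Aa and H2-Ab1 overlapped in the same way. Phagocytosis and Fc receptor genes had 10 of 14 tested, 3 above 0 and a median of -0.19. Dock2, an activator of the small GTPase Rac, was at 614 and 1269 CPM in the libraries labelled knockout, against 1469 and 1012 CPM in those labelled WT.

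Alternative activation genes had 6 of 13 tested, 5 above 0 and a median of 0.43, with 3 higher and 1 lower without overlap, beside 16.1% and 12% of all genes. Clec10a, a galactose-binding lectin, was at 294 and 300.4 CPM in the libraries labelled knockout, against 172 and 257 CPM in those labelled WT. Inflammatory genes had 6 of 21 tested, 2 above 0, a median of -0.35 and 0 without overlap, beside 16.1% and 12% of all genes. Cd86, a costimulatory ligand, was at 227 and 273 CPM in the libraries labelled knockout, against 244 and 207 CPM in those labelled WT. Interferon response genes had 3 of 14 tested, 0 above 0 and a median of -0.17. Parp14, an ADP-ribosyltransferase, was at 147 and 214 CPM in the libraries labelled knockout, against 151 and 290.3 CPM in those labelled WT.

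Of the lineage regulators 11 of 14 were tested, 8 lay above 0 and the median was 0.36. Zeb2 was at 2710.5 and 3752 CPM in the libraries labelled knockout, against 4986 and 4155 CPM in those labelled WT, without overlap. Runx1, a transcription factor of blood cells, was at 641 and 994 CPM in the libraries labelled knockout, against 606 and 456 CPM in those labelled WT, without overlap in the other direction. Csf1r overlapped, at 147 and 381 CPM in the libraries labelled knockout and 239 and 158 CPM in those labelled WT.

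Glucocorticoid targets, like the other lists chosen with earlier results of these data known and so no independent evidence, had 8 of 13 tested, 1 above 0 and a median of -0.73. In 4 of the 8 both libraries labelled knockout lay below both labelled WT, beside 12% of all genes. The lower sum was not particular to macrophages. In other nuclei the list summed to 1004 and 1832 CPM in the libraries labelled knockout, against 2803 and 2417 CPM in those labelled WT. In macrophage nuclei it summed to 1148 and 2028 CPM against 3017 and 2314 CPM. Fkbp5, a co-chaperone of the receptor, was at 561 and 1199.5 CPM in the libraries labelled knockout, against 1712.5 and 1202.5 CPM in those labelled WT, so 1 library of each label nearly met. Zbtb16, a zinc finger transcription factor, was at 254 and 277 CPM in the libraries labelled knockout, against 488 and 547 CPM in those labelled WT. Tsc22d3, a leucine zipper protein, overlapped between groups.

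Mitochondrially encoded genes had 8 of 13 tested, 0 above 0 and a median of -1.05, and in 6 of the 8 both libraries labelled knockout lay below both labelled WT, beside 12% of all genes. They summed to 2510.2 and 2820.3 CPM in the libraries labelled knockout, against 4855 and 7613 CPM in those labelled WT. Ribosomal protein genes had 37 of 85 tested, 30 above 0 and a median of 0.47, with 9 higher and 1 lower without overlap, beside 16.1% and 12% of all genes. Without the library labelled WT 2 that median was 0.019, with 20 of 37 above 0. The part of these RNAs in the other gene differences was not tested.

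Markers of other cell types were also summed in macrophage nuclei. The 9 adipocyte genes summed to 1215 and 1779 CPM in macrophage nuclei of the libraries labelled knockout 1 and 2, against 1143 and 688 CPM in those labelled WT 1 and 2, while other nuclei had 6169 and 15628 CPM against 11364 and 5539.7 CPM. These 9 genes belong to the rule, which places nuclei with 4 or more of them among the other nuclei. The rule itself thus lowers their sum in macrophage nuclei. Adipoq and Plin1 were at 0 in the library labelled knockout 1, and Plin1 in that labelled WT 2. The 8 B cell genes summed to 948 and 1009 CPM in the libraries labelled knockout, against 488 and 796 CPM in those labelled WT, and the T/NK genes to 347 and 207 CPM against 116 and 240.5 CPM. Neutrophil genes summed to 174 and 113 CPM in the libraries labelled knockout, against 35.9 and 33.2 CPM in those labelled WT, all from Csf3r and Mmp9, with S100a8, S100a9, Ly6g and Retnlg at 0 in each library. Endothelial genes summed to 374 and 265 CPM in the libraries labelled knockout, against 157 and 622 CPM in those labelled WT, and in the library labelled WT 2 that was above the 466 CPM of other nuclei. The part of these markers in the gene differences was not tested. Leaving out nuclei with at least 3 markers of any of 10 other types, adipocytes and neutrophils not among them, also gave 1 called gene, Gm47283. Left out were 5 and 44 nuclei of the libraries labelled knockout, and 6 and 4 of those labelled WT.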

How the data were processed

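Single-nucleus libraries from inguinal white adipose tissue were made with a Singleron GEXSCOPE kit, per the labels' protocols. The deposited files hold UMI counts per gene and barcode, whole numbers from the authors, in which every barcode holds at least 500 UMIs. Per the submitters' processing notes, GRCm38 (mm10) and Seurat 4.3.0 were used. No source used here names the aligner. The files of each library carry the opposite genotype in their names, and groups follow the sample labels. Of 12454, 16141, 15928 and 6827 barcodes in the libraries labelled knockout 1 and 2 and WT 1 and 2, those with at least 300 genes and at most 10% mitochondrial UMIs were kept (11988, 15887, 15528 and 6664). No doublet caller was run. The rule drops nuclei with 4 or more adipocyte genes. In an alternative, nuclei of mixed identity were left out, those with at least 3 markers of any of 10 other types. Adipocytes and neutrophils were not among these types.

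Counts of macrophage nuclei were summed per library, filtered with filterByExpr, scaled by TMM and tested by edgeR 4.0.16 (glmQLFit, robust; R 4.3.3), two-sided, with Benjamini-Hochberg adjustment over all tested genes, after the code had been checked on simulated counts. CPM are unscaled; each SE was taken as the absolute log2 difference over root F. The interaction was fitted over 8 sums with the library as a block. Sub-clusters came from scanpy 1.11.5 (1000 variable genes, 20 components, 15 neighbours, Leiden resolution 0.5), with folds on CPM plus 50. Named genes were the called genes and, in each direction, the 8 tested genes with the smallest p, leaving out predicted names and rule genes, and of each list the members of highest mean CPM; 1 gene that this rule names is not reported here. Members and lists were chosen with earlier results of these data known. The titles name separate mice, and p-values measure the spread between 2 libraries a group. A fit with 1 library left out holds a single library in 1 group, so its log2 differences are given and its p-values are not. Intervals and floors cover counting error only. Alternatives were DESeq2 1.42.0 and its size factors, no filter, a replicate block, stricter and looser rules, and each library left out.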

Additional observations from a re-analysis of the deposited data

Results flagged for a closer look

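In the library labelled knockout 2, 2.8169% of adipocyte-gated nuclei (142 of 5041, exact 95% interval 2.38% to 3.31%) held at least 3 macrophage markers, nuclei that the rule leaves out of the macrophages. The share was 0.0454% (1 of 2201) in the library labelled knockout 1, against 0.521% (17 of 3265) and 0.114% (1 of 881) in those labelled WT 1 and 2. After thinning to 500 UMIs it was 1.11% in the library labelled knockout 2 and 0% in that labelled knockout 1, against 0.276% and 0% in those labelled WT. It is given because it lies above both libraries labelled WT in nuclei outside the comparisons. The source of these markers was not tested.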

How the results depend on the processing

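The count of called genes was 1, Gm47283, with DESeq2's size factors, DESeq2's own test, no filter, the replicate block, at least 4 markers, fewer than 2 adipocyte genes, nuclei of at least 1000 UMIs and without nuclei of mixed identity. With 1 library left out, 1 group held a single library, and the numbers of genes called and tested changed with each. The log2 difference of Gm47283 then ran from 5.94 without the library labelled knockout 1 to 7.77 without that labelled WT 1. Same-numbered libraries deviated in opposite directions (correlation -0.35 over genes), and a crossed pairing added after the data were seen called 29 genes, 9 higher and 20 lower, among them 12 of the 16 named genes that were not called without a pairing. The labels do not say that numbers pair mice. Genes whose difference was unlike that in other nuclei numbered 0, against 3 with DESeq2's size factors (Cd226, Fn1 and Zeb2, all lower), with a median over genes of 0.04, against 0.15 with TMM. The number also changed without the library labelled knockout 2, where that group holds a single library. The cause was not tested.

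The difference in macrophage share was -0.0919 percentage points. It ran from -0.685 with fewer than 2 adipocyte genes to 0.180 with at least 2 markers, and from -0.837 to 0.654 with 1 library left out. Its sign was positive with at least 4 or at least 2 markers, without adipocyte-gated nuclei in the denominator and without the library labelled knockout 1. Of 202 values of 17 named genes under the other alternatives, the crossed pairing not counted, 197 kept their direction and side of the threshold and 0 reversed. The rest passed it newly, each with 1 library left out and so with a single library in 1 group. The medians of the resident, monocyte, lysosome, iron, scavenger, glucocorticoid, ribosomal and mitochondrially encoded lists kept their sign under the 12 alternatives. In these fits the monocyte median rested on only 2 or 3 genes and the resident median on 4 or 5. With 1 library left out other medians changed sign: MHC class II to -0.31 without that labelled knockout 2 and -0.026 without that labelled WT 2, complement to -0.16 and lineage regulators to -0.42 without that labelled knockout 2, lipid-associated genes to -0.27 and interferon response to 0.45 without that labelled WT 2, and inflammatory genes to 0.0087 without that labelled knockout 1. Among lists that kept their sign, leaving out the library labelled knockout 2 took the resident median to 0.39, the lysosome median to 0.15, the secreted growth factor median to 0.045 and the monocyte median to -3.40. In that fit 2 of 4 resident genes and 0 of 2 monocyte genes lay above 0. The library labelled knockout 1, with 71 macrophage nuclei, sets what can be detected for genes below about 40 CPM, where it holds 3 UMIs or fewer.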

Other observations

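Lists with no result above had 0 called members in macrophage nuclei. Caveola genes had 1 of 7 tested, Pacsin2, at 187 and 239 CPM in the libraries labelled knockout 1 and 2, against 270 and 224 CPM in those labelled WT 1 and 2. Immediate early genes had 5 of 16 tested, 0 above 0 and a median log2 difference of -0.31. Cycling genes had 5 of 7 tested, 2 above 0 and a median of -0.41, and summed to 334 and 398 CPM in the libraries labelled knockout, against 318 and 531 CPM in those labelled WT. Classical dendritic cell genes had 3 of 8 tested and 1 above 0, and summed to 307 and 578 CPM in the libraries labelled knockout, against 516 and 332 CPM in those labelled WT.

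Fibroblast genes summed to 200.3 and 364 CPM in the libraries labelled knockout, against 172 and 199 CPM in those labelled WT, and lymphatic endothelial genes to 26.7 and 51.9 CPM against 167 and 124 CPM. Plasma cell genes summed to 66.8 and 147 CPM in the libraries labelled knockout, against 87.3 and 108 CPM in those labelled WT, and mast cell genes to 147 and 27.0 CPM against 35.9 and 16.6 CPM. Epithelial genes summed to 347 and 296 CPM in the libraries labelled knockout, against 226 and 199 CPM in those labelled WT. Mural genes summed to 134 and 88.6 CPM in the libraries labelled knockout, against 74.5 and 116 CPM in those labelled WT, and Schwann cell genes to 13.4 and 41.1 CPM against 48.8 and 16.6 CPM.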
